A study of Homo sapiens with 4 samples.

Results

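The probes of 9 genes of the AP-1 and immediate early group, FOS, FOSB, FOSL1, FOSL2, JUN, JUNB, JUND, EGR1 and IER3, were compared between LN229 cells after SOX2 knockdown and LN229 cells after mock knockdown. A probe was taken as a member when the gene symbol given for it on the array equalled one of these names, which gave 11 of the 33096 gene probes, with 2 probes each for FOSB and FOSL2. The 33096 probes stand for 27903 gene IDs. LN229 is an established human glioblastoma line, and SOX2, a transcription factor of stem cells, was knocked down by transient transfection of small interfering RNAs (siRNAs), while the mock group received control siRNA that has no target. Each group held 2 one-colour Applied Biosystems Human Genome Survey arrays. The replicates were separate transfections of this single line, per the methods. Cells were harvested at a single time, days after transfection, and no series of times was sampled, so early responses were not followed.

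AP-1 is a family of transcription factors that bind DNA as dimers of basic leucine zipper proteins. The Jun proteins can pair with themselves or with a Fos protein, whereas Fos proteins need a Jun partner. FOS, FOSB, JUN, JUNB and EGR1 are immediate early genes, transcribed within minutes of a growth factor or stress signal without new protein synthesis, while FOSL1 and FOSL2 accumulate later and lack the strong activation domain of FOS and FOSB. FOSL1 and FOSL2 are also known as regulators of the mesenchymal state of glioblastoma.

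One field of the labels names the colon cancer line SW620, so markers of both lines were examined. Of 8 probes of glioblastoma or mesenchymal markers such as VIM and SPARC, 7 or 8 exceeded 3 in their ratio of signal to noise (S/N) on each array. Of 12 probes of colon epithelial markers, 3 to 7 did, with a summed signal of 0.627 to 1.06 against 152 to 204 for the first list, and KRT20, CDH1 and CDH17 were at or under 3 on every array. Both TFF3 probes and 1 VIL1 probe exceeded 3 on every array, and LGALS4 and CDX2 did on the mock arrays alone. CDX1 did on replicate 2 of both groups, TACSTD1 on that of mock knockdown and GPA33 on that of SOX2 knockdown. These markers do not by themselves identify the line. Signals are given as scaled signals, that is relative to the 75th percentile of the gene probes of the same array. The SOX2 probe (hCG2021649) gave 0.467 and 0.701 in mock knockdown against 0.209 and 0.149 after knockdown, the direction that the labels give. The fit held the 21256 probes whose S/N exceeded 3 throughout 1 group or both, and all 11 member probes were among them. Precision is limited by having 2 arrays a group, and an exact permutation test of a single probe cannot give a two-sided p below 0.333.

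Within the Fos family the directions were opposite. Scaled signals of FOS and FOSB were lower on both knockdown arrays than on both mock arrays, with ratios of the means from 0.576 to 0.75, whereas those of FOSL1 and FOSL2 were higher on both, from 1.31-fold upwards. JUN, JUNB, JUND and EGR1 gave overlapping groups with ratios between 0.942 and 1.01, and IER3 was slightly higher after knockdown. Of the 11 member probes, 1 was over 2-fold higher and 0 were over 2-fold lower, where 1.57% and 1.04% of all probes fitted passed in those directions. The 1 was FOSL2 probe 117028, which entered the fit only through the knockdown arrays, where it was high. With S/N over 3 required on each array, 0 member probes passed 2-fold. The groups did not overlap for 4 member probes that were higher, that FOSL2 probe among them, and 3 that were lower, where 21.2% and 25.8% of all probes did so.

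With limma and p-values adjusted by Benjamini-Hochberg over the 21256 probes, 0 member probes and 0% of all probes were below 0.05. The adjusted p of the members ranged from 0.122, that of FOSL2 probe 117028, to 0.981. At an unadjusted p of 0.05 limma called 3 member probes higher, this probe among them, and 2 lower, where 7.90% and 9.16% of all probes passed in those directions. The differences of the Fos family separated the arrays of the groups and failed the correction for the number of probes. The smallest adjusted p of any probe was 0.0582. Between 5 and 826 of all probes passed in 5 other settings of limma, in 3 of which FOSL2 probe 117028 was among them.

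**Figure D1:**
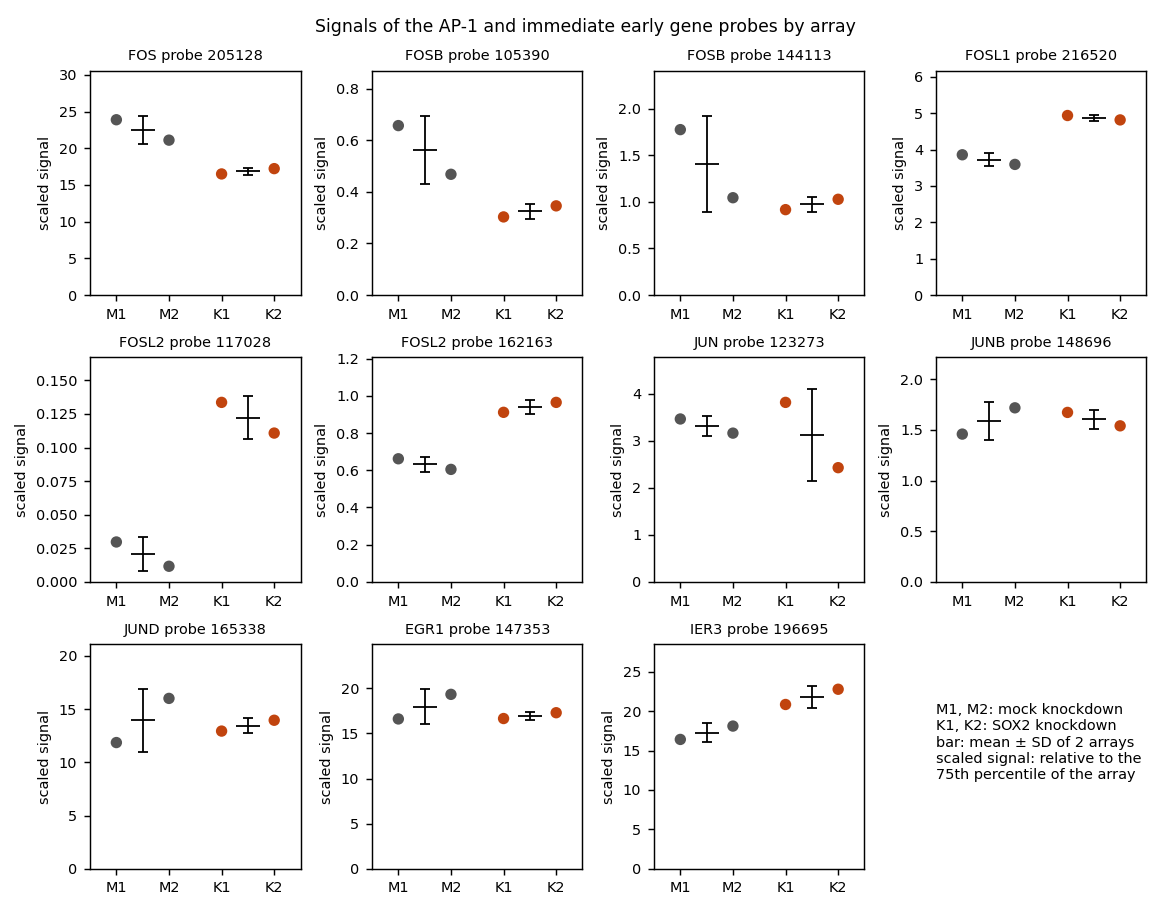
Scaled signal (relative to the 75th percentile of the array, linear axis from 0) of the 11 member probes on the 2 mock arrays (M1, M2) and the 2 SOX2 knockdown arrays (K1, K2), with the mean ± SD of each group. FOS and FOSB were lower and FOSL1, FOSL2 and IER3 higher on both knockdown arrays, while the JUN, JUNB, JUND and EGR1 groups overlap.

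FOS encodes the founding Fos protein, a strong activator within AP-1. Its single probe (hCG22355.3) read 23.9 and 21.1 in mock knockdown against 16.5 and 17.2 after knockdown, in scaled signal. The higher knockdown array was still below the lower mock array. The group means were 22.5 ± 1.97 and 16.9 ± 0.513 (SD, n = 2 each), that is 0.75 of the mock level. On the log2 scale the difference was -0.41 (standard error, SE, 0.14), and limma gave an adjusted p of 0.253. Its S/N was between 59.2 and 78.9, far above the limit of 3. In bulk RNA, fewer cells that express a gene and less of its RNA per cell cannot be told apart.

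FOSB, the other strong activator of the family, was measured by 2 probes of the same gene ID (hCG20725.3), which share their target and are not replicates. In scaled signal, probe 105390 read 0.657 and 0.468 in mock knockdown and of 0.303 and 0.346 after knockdown. Its group means were 0.562 ± 0.133 and 0.324 ± 0.0303 (SD, n = 2 each), with a log2 change of -0.78 (SE 0.21, adjusted p 0.202, limma). This was the widest decrease among the member probes, and the arrays did not overlap. Probe 144113 gave 1.77 and 1.04 in mock knockdown against 0.916 and 1.03 after knockdown, so the second mock array lay barely above the second knockdown array. Its log2 change was -0.49 (SE 0.29, 95% confidence interval -1.26 to 0.29), and without mock replicate 1 it was -0.11, so the size of this decrease rested on that array. Both FOSB probes were highest on mock replicate 1.

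The promoters of the genes that moved in opposite directions were set side by side, with that of EGR1 as a member whose groups overlapped. The sequences are the 250 bases before the start of each gene in RefSeq (build GRCh38.p14), printed in the direction of transcription. Entries were found for 7 of the 9 genes, all except FOSL1 and IER3. They lie at chr14:75278578-75278827 (plus strand) for FOS, chr19:45467746-45467995 (plus strand) for FOSB, chr2:28392608-28392857 (plus strand) for FOSL2 and chr5:138465229-138465478 (plus strand) for EGR1. Capitals mark matches to the elements searched on both strands, which were the AP-1 element TGACTCA, the cAMP response element TGACGTCA, its first 6 letters TGACGT, the SOX element CATTGT and the serum response element.
FOS: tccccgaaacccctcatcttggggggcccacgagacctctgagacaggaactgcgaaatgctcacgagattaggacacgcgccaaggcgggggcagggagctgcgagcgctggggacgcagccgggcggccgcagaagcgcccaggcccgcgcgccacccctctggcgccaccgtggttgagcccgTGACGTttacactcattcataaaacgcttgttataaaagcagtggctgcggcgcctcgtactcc
FOSB: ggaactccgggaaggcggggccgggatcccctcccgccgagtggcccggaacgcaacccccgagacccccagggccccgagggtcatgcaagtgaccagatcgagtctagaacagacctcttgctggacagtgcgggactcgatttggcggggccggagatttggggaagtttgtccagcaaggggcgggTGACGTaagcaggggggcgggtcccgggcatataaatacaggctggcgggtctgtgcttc
FOSL2: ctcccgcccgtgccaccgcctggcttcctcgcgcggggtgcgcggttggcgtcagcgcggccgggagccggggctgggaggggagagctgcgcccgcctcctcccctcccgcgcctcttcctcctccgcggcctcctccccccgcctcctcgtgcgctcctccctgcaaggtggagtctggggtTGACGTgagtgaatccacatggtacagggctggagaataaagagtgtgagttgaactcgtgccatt
EGR1: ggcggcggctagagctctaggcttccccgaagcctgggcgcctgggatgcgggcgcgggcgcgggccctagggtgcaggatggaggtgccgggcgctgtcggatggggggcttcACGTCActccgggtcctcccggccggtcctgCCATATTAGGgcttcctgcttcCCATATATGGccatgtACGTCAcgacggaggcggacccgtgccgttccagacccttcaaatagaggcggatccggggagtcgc

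FOS, FOSB and FOSL2 each held 1 match to TGACGT, whose first letter is 64, 60 and 66 bases before the start. The letters thus stood at nearly the same place in members that were lower and in a member that was higher after SOX2 knockdown. They occurred in 5 of the 7 member promoters, the other 2 being those of JUND and EGR1, and in 7.10% of all 35116 promoters of this length. These 6 letters were added after the sequences had been seen, and every match to TGACGTCA, present in JUND and in 1.65% of all promoters, holds them on both strands. EGR1 held 2 serum response elements, the binding site of SRF, found in 1.16% of all promoters. The other member windows, that of FOS included, held no match to this element. Bases further upstream were not searched, so FOS is not shown to lack it. Neither TGACTCA (4.20% of all promoters) nor CATTGT (9.29%) matched in any of the 7 windows, which says only that these letters are not there. Matches are descriptions of the letters, and binding was not measured on these arrays.

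FOSL1 encodes a Fos protein that lacks a strong activation domain. Its single probe (hCG2019680) read 3.86 and 3.59 in mock knockdown against 4.94 and 4.82 after knockdown, in scaled signal. All 4 arrays were bright (S/N of 48.6 to 61.2), and the groups did not overlap. The mean was 3.73 ± 0.187 in mock knockdown and 4.88 ± 0.0855 after knockdown (SD, n = 2 per group), a ratio of 1.31. The log2 change was 0.39 (SE 0.13, adjusted p 0.247, limma), with a 95% confidence interval of 0.05 to 0.73.

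FOSL2 encodes the Fos protein closest to FOSL1 and was read by 2 probes of gene ID hCG1990537, which gave the same direction and very different sizes. The bright probe 162163 gave scaled signals of 0.662 and 0.605 in mock knockdown and of 0.911 and 0.965 after knockdown. Both knockdown arrays lay well above both mock arrays, and the replicates were close. Its group means were 0.633 ± 0.0404 and 0.938 ± 0.0378 (SD, n = 2 each), with a log2 change of 0.57 (SE 0.13, adjusted p 0.166, limma).

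The dim probe 117028 was the single member probe past 2-fold. Its scaled signals were 0.0297 and 0.0116 on the mock arrays, with S/N of 2.46 and 0.70, and 0.134 and 0.111 on the knockdown arrays, with S/N of 5.82 and 10.6. The mock signals were thus not well above background, and the size of the fold is not settled. On mock replicate 2 the deposited signal equalled the deposited error of the spot, which carried a flag of 1. With that value included, the means of the scaled signals were 0.0207 ± 0.0128 and 0.122 ± 0.0162 (SD, n = 2 per group). The ratio of these means was 5.91 (adjusted p 0.122, limma). When 3 times the deposited error of each mock spot was put in place of its signal, the ratio of the geometric means was 3.42. The fitted log2 change of 2.71 was 1.28 with a floor of 0.05, 0.70 when the FOSL2 probes were averaged and 0.24 with normexp background correction. The direction was the same in every setting that kept the probe, and the probe left the fit where S/N over 3 was required on each array. Leaving out 1 array or raising the floor could not have reversed that direction, since the groups did not overlap.

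**Figure D2:**
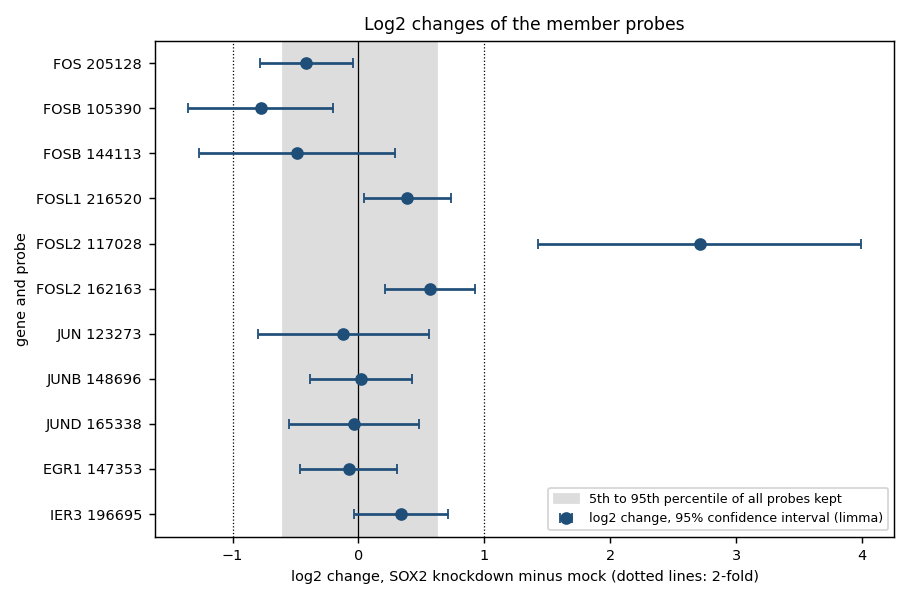
Log2 change (SOX2 knockdown minus mock) of the 11 member probes with 95% confidence intervals from limma, with the 5th to 95th percentile of all 21256 probes fitted (-0.60 to 0.62) in grey and dotted lines at 2-fold. FOSB probe 105390 and FOSL2 probe 117028 lay outside the grey band, FOS and FOSL1 within it on opposite sides of 0.

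Because a ratio of signals on the same array does not depend on how arrays are scaled, the shift of FOSL1 and FOSL2 against FOS and FOSB was also taken within arrays, with the brighter probe of each gene. These pairs were chosen after the values had been seen and are a description. Relative to the mock mean, the log2 ratio of FOSL1 over FOS was -0.04 and 0.04 in mock knockdown against 0.85 and 0.75 after knockdown, a shift of 0.80. That of FOSL2 over FOS was -0.02 and 0.02 in mock knockdown against 0.97 and 0.99 after knockdown, a shift of 0.98. In both pairs the knockdown arrays lay outside the range of the mock arrays, which could not have been otherwise. FOSL1 and FOSL2 were higher and FOS was lower without overlap of the groups, so the groups of these ratios could not overlap. Each shift is the log2 change of the upper gene of the ratio minus that of the lower gene. The ratios are thus not a separate check of the opposite directions. Against FOSB the mock arrays differed more, with shifts of 0.88 for FOSL1 and 1.06 for FOSL2 beside a mock SD of 0.47 and 0.45. For JUNB over JUN the shift was 0.14, smaller than the SD of 0.26 in mock knockdown and of 0.38 after knockdown.

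**Figure D3:**
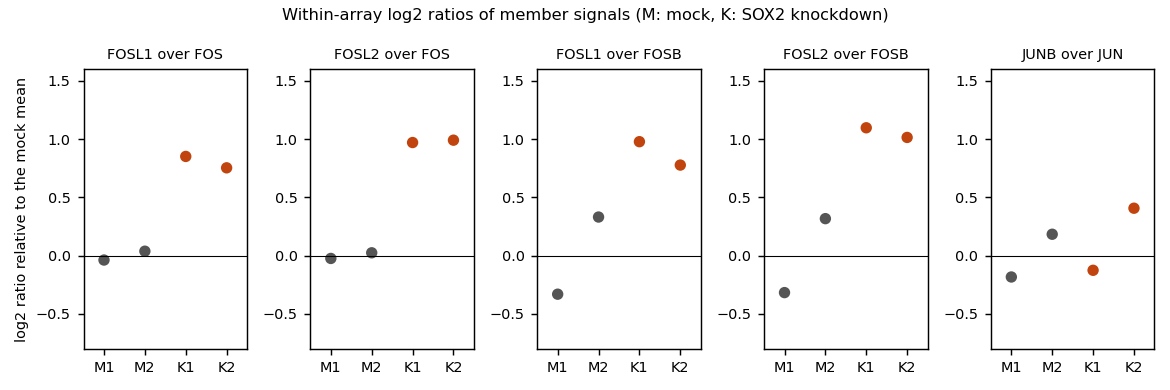
Log2 ratio of the signals of pairs of members on each array, relative to the mean of the mock arrays (M1, M2 mock; K1, K2 SOX2 knockdown), on a common axis. FOSL1 and FOSL2 against FOS were 0.75 to 0.99 higher on the knockdown arrays, and JUNB against JUN overlapped between the groups.

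JUN, JUNB and JUND encode the obligatory partners of the Fos proteins. The JUN probe (hCG1780282.1) gave scaled signals of 3.46 and 3.16 in mock knockdown and of 3.81 and 2.43 after knockdown, so the knockdown arrays lay on either side of the mock arrays. Its log2 change was -0.12 with a 95% confidence interval of -0.80 to 0.56 (limma), and without SOX2 knockdown replicate 2 it was 0.21. The JUNB probe (hCG172481.3) gave 1.46 and 1.72 in mock knockdown against 1.67 and 1.54 after knockdown. Its log2 change was 0.02 (95% confidence interval -0.39 to 0.43), and its sign was negative with median, no or assay-based scaling and in the authors' processed ratios. JUND, often an inhibitor of proliferation, gave 11.86 and 16.01 in mock knockdown against 12.94 and 13.96 after knockdown (hCG2001475). Its log2 change was -0.04 (95% confidence interval -0.55 to 0.48), with a positive sign under quantile and normexp normalization. These intervals include changes in either direction, so equal levels are not shown.

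EGR1 encodes a zinc finger protein whose gene is switched on by the same serum response factor route as FOS. Its probe (hCG18777.1) gave scaled signals of 16.6 and 19.3 in mock knockdown and of 16.7 and 17.3 after knockdown. The knockdown arrays lay within the range of the mock arrays. Its log2 change was -0.08 (SE 0.14, 95% confidence interval -0.46 to 0.31), and without mock replicate 2 it was 0.03. IER3, an early response gene induced by NF-kappaB that protects cells from apoptosis, gave 16.4 and 18.1 in mock knockdown and 20.8 and 22.8 after knockdown (hCG26002.2). Both knockdown arrays lay above both mock arrays, with means of 17.3 ± 1.199 and 21.8 ± 1.37 (SD, n = 2 each) and a log2 change of 0.34 (SE 0.14, adjusted p 0.329, limma) whose 95% confidence interval of -0.03 to 0.71 included 0.

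Pathway lists were then read beside the members by counts, with 1.57% of all probes over 2-fold higher and 1.04% over 2-fold lower as the background for each list. The lists were chosen with earlier results of these data known, so their counts are descriptions and not tests. Of 13 genes for AP-1 partners and related basic leucine zipper factors, 15 of 17 probes were fitted, 2 of them over 2-fold higher and 0 lower, with a median log2 change of 0.36 beside 0.00 for all probes. ATF3, a stress-induced partner of Jun proteins, was the leading one. Its scaled signals were 4.48 and 3.49 in mock knockdown and 9.88 and 10.5 after knockdown, a log2 change of 1.36 (SE 0.17, adjusted p 0.0964, limma). The other was the dimmer of 2 probes of MAFK, a small Maf protein, whose mock signals were not well above background (S/N of 2.76 and 0.49). Its fitted log2 change was 1.12 (SE 0.34), and with 3 times the error of each mock spot in place of its signal the ratio was 1.203, so its size is not settled. The brighter MAFK probe had a log2 change of 0.31.

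Of 24 other immediate early genes, 23 were found on the array, and 25 of 28 probes were fitted, 0 over 2-fold higher and 2 over 2-fold lower, with a median log2 change of -0.21. Both of the latter were probes of NR4A1, an orphan nuclear receptor induced by the same signals as FOS and EGR1. Its brighter probe gave scaled signals of 5.25 and 6.71 in mock knockdown and of 2.91 and 2.92 after knockdown, a log2 change of -1.02 (SE 0.17, adjusted p 0.117, limma). The dimmer probe had a log2 change of -1.17 (SE 0.12, adjusted p 0.0833, limma). In this list the groups did not overlap for 6 probes that were higher and 13 that were lower. The same counts were 10 and 1 for the AP-1 partners, 6 and 7 for the upstream kinases and activators and 13 and 3 for the target genes, where 21.2% and 25.8% of all probes were separated in those directions.

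The fitted probes of the EGR and NR4A families, of the EGR corepressors and of the serum response factor gene SRF lie outside the rule for naming and were picked after their values were seen. EGR2 gave 4.25 and 2.60 in mock knockdown and 2.20 and 2.38 after knockdown, a log2 change of -0.54 (SE 0.27), with mock replicate 1 well above the rest. The brighter EGR3 probe was also highest on mock replicate 1 (2.40 against 1.19 on mock replicate 2), and its groups overlapped, with a log2 change of -0.54 (SE 0.39). The dimmer EGR3 probe had a log2 change of -0.06 (SE 0.16) and EGR4 one of 0.21 (SE 0.31), also with overlapping groups. NR4A2 and NR4A3 had log2 changes of -0.34 (SE 0.13) and -0.91 (SE 0.40). The EGR corepressors NAB1 and NAB2 had log2 changes of -0.25 (SE 0.14) and 0.35 (SE 0.19), and SRF one of 0.12 (SE 0.12). At an unadjusted p of 0.05, limma called 4 fitted probes of the whole list higher and 4 lower. Of all probes, 7.90% and 9.16% passed in those directions. The higher ones were GADD45B (log2 change 0.99), PHLDA1 (0.81), MYC (0.72) and BTG2 (0.53). The lower ones were both NR4A1 probes, CTGF (-0.83) and SGK1 (-0.44). These too were named after their values were seen.

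Of 20 genes for kinases and activators upstream of AP-1, such as the ERK, JNK and p38 kinases and the ELK factors, 24 of 30 probes were fitted. None was over 2-fold in either direction, and the median log2 change was -0.03. Levels of kinase transcripts do not measure kinase activity.

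Of 26 genes known as AP-1 targets in other settings, 22 of 31 probes were fitted, 7 of them over 2-fold higher and 0 lower, with a median log2 change of 0.17. The study had already reported IL6 and IL8 as higher after knockdown, and the list was chosen with such results known. Among them were IL6, HMOX1, EREG, VEGF, IL8 and IL11, the last pair named after their values were seen. The cytokine gene IL6 had a log2 change of 3.38 (SE 0.16, adjusted p 0.0582, limma), and HMOX1, which encodes the haem-degrading enzyme, one of 2.23 (SE 0.15, adjusted p 0.064, limma). EREG, a ligand of the EGF receptor, had a log2 change of 1.34 (SE 0.45) with an S/N of 1.38 on mock replicate 2, and the angiogenic factor gene VEGF one of 1.24 (SE 0.23). HMOX1 is also known as a target of NRF2, and IL6 and IL8 of NF-kappaB, so the list is not particular to AP-1. At an unadjusted p of 0.05, limma called 8 fitted probes of this list higher and 1 lower, where 7.90% and 9.16% of all probes passed. The lower one was PLAUR (log2 change -0.40), and TIMP1 (-0.28) and TGFB1 (-0.43) were also lower without overlap. The groups overlapped for both CCND1 probes, LIF, SPP1 and CDKN1A. The collagenase and stromelysin genes MMP1, MMP3, MMP9, MMP10 and MMP13, classical AP-1 targets, had S/N at or under 3 on all 4 arrays, as did PLAU. These genes too were singled out after their values were seen.

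**Figure D4:**
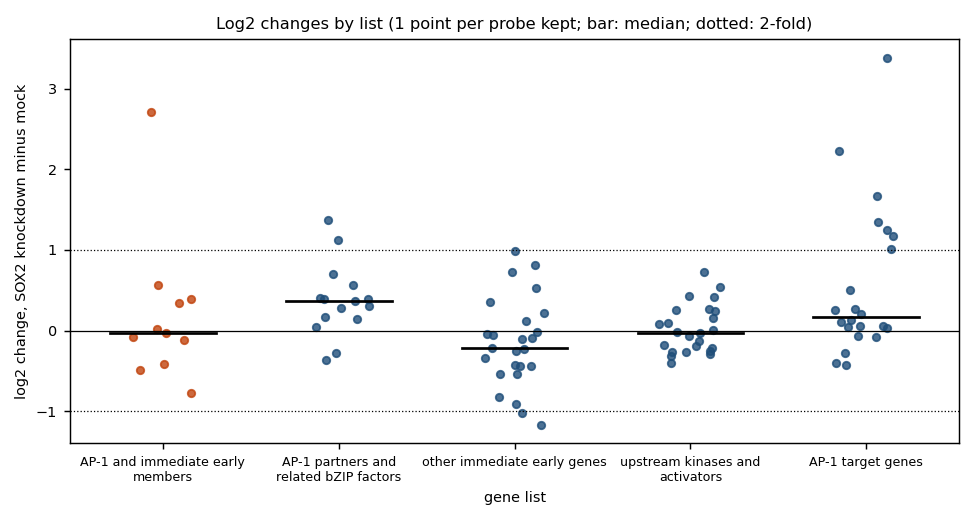
Log2 change (SOX2 knockdown minus mock) of every fitted probe of the members and of the 4 pathway lists, with the median of each list as a bar and dotted lines at 2-fold. The medians were -0.04 for the members, 0.36 for the AP-1 partners, -0.21 for the other immediate early genes, -0.03 for the upstream kinases and activators and 0.17 for the target genes.

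The 3 probes most like FOSB probe 105390, the member with the widest change among those above the S/N limit on each array, were sought among 15477 probes with 1 symbol and S/N over 3 throughout. By the root mean square difference of log2 values centred over the 4 arrays they were P2RX3 (0.04), PACAP (0.06) and IGSF11 (0.07), with knockdown to mock ratios of 0.582, 0.570 and 0.609. Those ratios follow from the choice by likeness. The mean scaled signals of the 3 in mock knockdown were 0.102, 0.128 and 0.0842, against 0.562 for the FOSB probe. Over 4 arrays such a likeness is weak. The second FOSB probe ranked 118 and FOS 334 in that order.

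**Figure D5:**
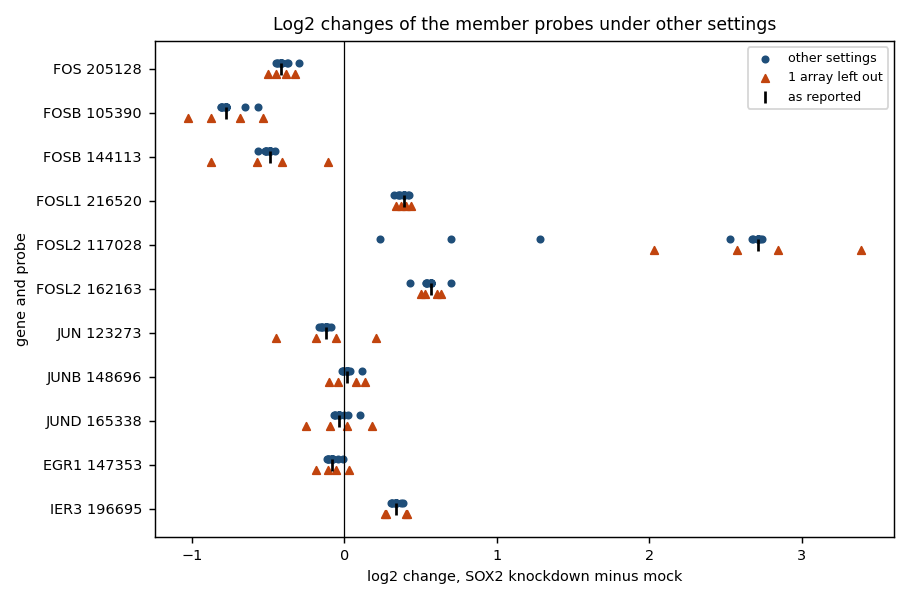
Log2 change (SOX2 knockdown minus mock) of each member probe as reported (black bar), under other processing settings (circles) and with 1 array left out (triangles). FOS, FOSB, FOSL1, FOSL2 and IER3 stayed on their side of 0 in every setting that kept the probe, while JUN, JUNB, JUND and EGR1 lay on both sides. Leaving out 1 array cannot move a probe across 0 when its groups do not overlap, as for FOS, FOSB, FOSL1, FOSL2 and IER3.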

How the data were processed

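Biotin-labelled RNA of LN229 cells was hybridised to 4 one-colour chemiluminescent arrays. The deposited scanner files hold intensity columns on a linear scale, with the signal normalized by the authors' scanner software to a median near 1 (1.03 to 1.05 here), the S/N score, an error and flags whose meanings are not given in the sources used here. A further deposited table holds the authors' processed values as a linear ratio per probe (column medians 0.102), used as an alternative. Groups came from the source names and replicate numbers from the titles.

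A flag of at least 5000 on some array removed 210 probes and left 32886. Signals were scaled by the 75th percentile of the array (5.96 to 6.88 in deposited units), floored at 0.01 and log2 transformed. The 21256 probes whose S/N exceeded 3 throughout 1 group or both were fitted singly with limma 3.58.1 in R 4.3.3 (lmFit, eBayes, two-sided, Benjamini-Hochberg over all probes kept). The methods of the study averaged probes by gene ID and used a 2-fold cutoff of the replicate means without a test. Here single probes were compared, since members were defined per probe, and the average was an alternative. The script was tested on simulated data with the same spread for all probes. That test does not show how the fit performs at the unequal spreads of these data. Member flags were 0, except for FOSL2 probe 117028 (highest flag 1).

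Members, lists and tests were chosen with earlier results of these data known. All members were named, and of each list up to 5 separated probes past 2-fold with the largest change, of which 1 is not reported here. Array gene names are old, and 2 list genes (BATF2, BATF3) were matched by accession while NPAS4 was not found. RefSeq promoters were searched in Python 3.11.15. Alternatives covered scaling, background, floor, S/N and flag filters, gene averages, variance models, the replicate block and leaving out each array.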

Additional observations from a re-analysis of the deposited data

How the results depend on the processing

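The member log2 changes of FOS, both FOSB probes, FOSL1, both FOSL2 probes and IER3 kept their direction under every alternative that gave a value (20 each, and 19 for FOSL2 probe 117028, which the filter on all 4 arrays removed). Without 1 array they ranged from -0.50 to -0.32 for FOS, from -1.02 to -0.53 and from -0.87 to -0.11 for FOSB probes 105390 and 144113, from 0.34 to 0.44 for FOSL1, from 2.03 to 3.39 and from 0.50 to 0.63 for FOSL2 probes 117028 and 162163, and from 0.27 to 0.41 for IER3. Many of these alternatives could not change a sign. The floors, S/N filters, replicate block and variance models left the estimate of each bright probe as it was. Leaving out 1 array cannot reverse a probe whose groups do not overlap, which holds for all the probes just named. The counts of alternatives are thus not counts of independent checks. JUNB turned to -0.014 with median scaling, -0.0071 without further scaling, -0.0035 in the authors' ratios and -0.0082 with the assay-normalized signal. JUND turned to 0.028 with quantile normalization and 0.10 with normexp. Leaving out 1 array gave JUN -0.45 to 0.21, JUNB -0.10 to 0.14, JUND -0.25 to 0.18 and EGR1 -0.19 to 0.031 (the latter without mock replicate 2).

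FOSL2 probe 117028 passed an adjusted p of 0.05 with median scaling (2.68, adjusted p 1.93e-17), without further scaling (2.68) and in the authors' ratios (2.53). In these 3 fits limma estimated 1 common variance for all probes, so its SE was the same for every probe. Over the alternatives its adjusted p reached 0.554. All probes past an adjusted p of 0.05 in limma numbered 0 as reported, 826 with median scaling, 776 without further scaling, 758 in the authors' ratios, 287 with a variance trend and 5 where S/N exceeded 3 on each array. Without 1 array the count was 0 throughout.

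The count of probes past 2-fold was 554 as reported, 237 with normexp (144 shared), 363 with a floor of 0.05, 1373 without an S/N filter, 302 where S/N exceeded 3 on each array, 2234 at 1.5-fold and 119 at 3-fold, and from 782 to 1192 without 1 array (1192 without mock replicate 1, 868 without mock replicate 2 and 1135 without SOX2 knockdown replicate 1). The share of higher calls was 60.3%, and 77.6% with normexp, 82.4% at 3-fold, 50.6% at 1.5-fold, 51.2% without an S/N filter, 71.9% without SOX2 knockdown replicate 1 and between 53.7% and 61.9% in the other settings. Member probes past 2-fold numbered 1 as reported, 0 under normexp, under the S/N filter on each array and after averaging by gene ID, 2 at 1.5-fold, and 1 or 2 without 1 array, the second being FOSB probe 105390 without mock replicate 2. Probes of the pathway lists past 2-fold numbered 11 as reported, 6 with normexp, 19 at 1.5-fold and 3 at 3-fold, and from 9 to 13 without 1 array.

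Replicate block: same-numbered arrays deviated in opposite directions (r = -0.48 across probes), so the numbers were not taken to pair samples. The block called 0 probes, as did a crossed pairing, which was added after seeing the data. S/N limits only FOSL2 probe 117028 among the members.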
